A study of Mus musculus with 6 samples.

Results

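Egr1, Egr2, Egr3, Nr4a1, Nr4a2, Klf2, Klf4, Klf6, Klf10 and Ier2 are early-response genes, and all but Ier2 encode DNA-binding transcription factors of the EGR, NR4A and KLF families. They were taken by symbol from a table of 56734 gene symbols, in which all 10 were found. The table holds poly(A) RNA-seq counts of B16-OVA cells, mouse melanoma cells that carry chicken ovalbumin as an antigen, cultured in DMEM with serum and antibiotics. One group was 3 libraries of cells with a knockout of the m6A reader Ythdf2 (Ythdf2-KO), and the other was 3 libraries of WT cells of the same line. Titles mark the Ythdf2-KO samples gY2 and the WT samples gNC, tags that the labels do not explain. The labels also leave unsaid whether the knockout line is 1 clone and whether the replicates were separate cultures, so p-values measure only the spread between these libraries, which may be technical. Ythdf2 mRNA, which the knockout targets, was at 100.1, 101 and 104 CPM (counts scaled to library size with TMM factors) in the Ythdf2-KO libraries and 124, 124 and 125 CPM in the WT libraries. That is a 1.23-fold fall in edgeR's quasi-likelihood test (adjusted p = 4.08e-13), and gene counts show neither the edit nor the protein. The libraries held 55660473 to 69497273 counts, and 17718 genes, including all 10, had enough counts to be tested.

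Immediate-early genes are transcribed within minutes of a growth-factor, stress or calcium signal, without need for new protein, and their mRNAs are usually short-lived. ERK signaling reaches Egr1, Egr2, Egr3 and Ier2 largely through serum response factor and its ETS partners, cyclic AMP and calcium reach the NR4A genes through CREB and MEF2, and ERK5 and MEF2 act on Klf2 and Klf4. EGR proteins bind GC-rich sites and are restrained by the corepressors NAB1 and NAB2, NR4A proteins are nuclear receptors without a known physiological ligand, and KLF proteins bind CACCC and GC-rich elements. YTHDF2 binds mRNAs with N6-methyladenosine and is known to promote their decay, so the comparison asks how the levels of these short-lived mRNAs stand in tumor cells with the knockout.

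The promoters of Egr1, Egr3, Klf10 and Ier2 were not examined. RefSeq promoter sequence was used for the other 6 of the 10 genes, Egr2, Nr4a1, Nr4a2, Klf2, Klf4 and Klf6. Elements that early signals are known to use were searched for in the 250 bases before the start of these 6 genes. Of these, 5 are printed: Nr4a2 and Nr4a1 for their repeated cores of the cyclic AMP response element (CRE), Klf2 for its MEF2 site, Egr2 for its CArG box, the serum response element core, and Klf6 because it held none of those 3 elements. The windows, in GRCm38.p6, are chr2:57124004-57124253 on the minus strand for Nr4a2, chr15:101266596-101266845 on the plus strand for Nr4a1, chr8:72318812-72319061 on the plus strand for Klf2, chr10:67537619-67537868 on the plus strand for Egr2 and chr13:5861239-5861488 on the plus strand for Klf6. Capitals mark CRE cores (TGACG or CGTCA), CArG boxes and MEF2 sites in the narrow form given below. Each sequence ends at the base before the start.
Nr4a2: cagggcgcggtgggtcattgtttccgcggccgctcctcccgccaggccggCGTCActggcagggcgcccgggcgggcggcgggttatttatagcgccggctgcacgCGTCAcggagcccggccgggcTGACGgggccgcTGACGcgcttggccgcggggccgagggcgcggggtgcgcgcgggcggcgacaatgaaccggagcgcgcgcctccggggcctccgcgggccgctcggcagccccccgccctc
Nr4a1: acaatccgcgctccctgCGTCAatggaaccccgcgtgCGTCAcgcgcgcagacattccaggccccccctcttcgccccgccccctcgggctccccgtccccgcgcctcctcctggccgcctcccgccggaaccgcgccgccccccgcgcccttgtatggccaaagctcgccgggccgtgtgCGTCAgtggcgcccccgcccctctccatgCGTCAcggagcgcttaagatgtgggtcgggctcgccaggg
Klf2: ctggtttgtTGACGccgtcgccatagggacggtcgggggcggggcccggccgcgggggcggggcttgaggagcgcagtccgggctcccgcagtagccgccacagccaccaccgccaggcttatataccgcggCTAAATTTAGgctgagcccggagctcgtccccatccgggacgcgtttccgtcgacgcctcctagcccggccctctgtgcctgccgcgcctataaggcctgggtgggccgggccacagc
Egr2: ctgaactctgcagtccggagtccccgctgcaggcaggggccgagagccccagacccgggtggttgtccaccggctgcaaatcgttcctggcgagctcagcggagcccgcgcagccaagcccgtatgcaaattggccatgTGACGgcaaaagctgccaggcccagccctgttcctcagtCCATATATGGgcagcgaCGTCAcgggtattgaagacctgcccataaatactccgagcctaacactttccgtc
Klf6: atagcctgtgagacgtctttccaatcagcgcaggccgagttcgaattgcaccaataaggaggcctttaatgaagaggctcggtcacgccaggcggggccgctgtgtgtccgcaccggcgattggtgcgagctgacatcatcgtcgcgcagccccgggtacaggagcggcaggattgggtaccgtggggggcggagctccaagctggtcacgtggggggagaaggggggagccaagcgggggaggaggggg

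A CRE core lay in 5 of the 6 windows, 4 times each in Nr4a1 and Nr4a2, 2 times in Egr2 and 1 time each in Klf2 and Klf4, against 17.8% of 32851 RefSeq windows of the same length. No window held the full CRE TGACGTCA, which 1.55% of all windows hold. The CArG box was in the Egr2 window alone among the 6, against 1.47% of all windows. The MEF2 site was searched in 1 narrow form, CTA, then 4 bases of A or T, then TAG. That form was in the Klf2 window alone, against 0.508%. Looser forms were not searched, and the Nr4a2 window holds ttatttatag, which differs from that form in the first base only. GC boxes (GGGCGG or CCGCCC) were in 5 of the 6 windows, all but that of Egr2, against 32.7% of all windows. An EGR site (GCGTGGGCG or GCGGGGGCG, both strands) was in those of Klf2, Klf4 and Nr4a1, against 3.06%, and each of the 3 overlapped a GC box. The 6 windows held at least 61.6% G and C, against a median of 52.4% over all windows. Egr2 has 5 RefSeq starts, and the one shared with the GENCODE transcript used here was taken. For Nr4a1 and Nr4a2 the RefSeq start lies 12577 and 8965 bases from that of the GENCODE transcript. These matches are letters in a window and show no binding.

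**Figure D1:**
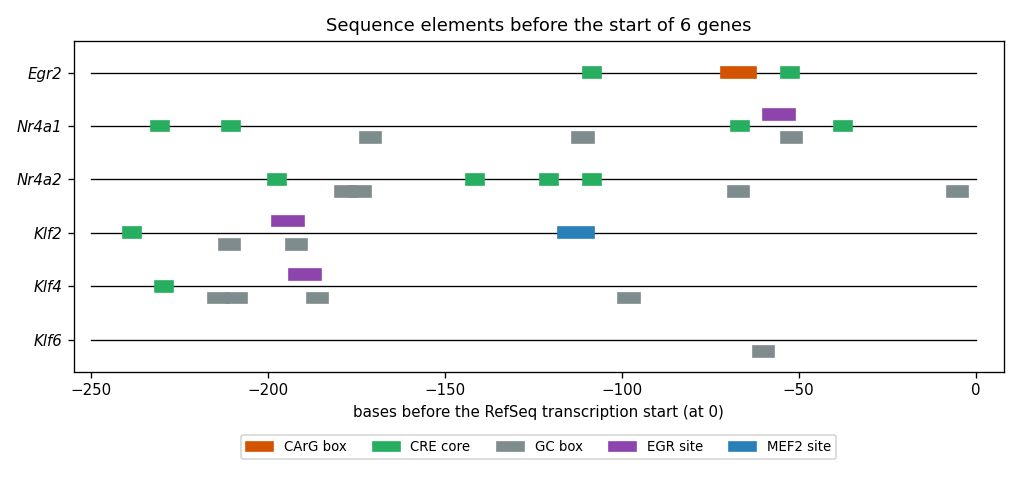
Positions of sequence elements in the 250 bases before the RefSeq start of 6 genes, with the x axis in bases before the start and 1 line per gene. Boxes above a line are EGR sites, boxes below it GC boxes, and boxes on it the other elements; Nr4a1 and Nr4a2 each hold 4 CRE cores, and Klf6 holds 1 GC box.

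Most of these mRNAs were more abundant in Ythdf2-KO cells. Of the 10, 8 were called higher (Egr1, Egr3, Nr4a1, Nr4a2, Klf2, Klf4, Klf6 and Ier2), Klf10 was called marginally lower and Egr2 was not called, at a Benjamini-Hochberg adjusted p under 0.05 over all genes tested in edgeR's quasi-likelihood test. Across all tested genes 49.9% were called, 24.1% higher and 25.8% lower, so a call by itself is common here. That split moves with the scaling: 48.3% of all calls were higher as reported, 59.2% under upper-quartile factors and 37.8% once offsets for GC content and length were used. The median log2 fold change of the 10 genes was 0.46, beside -0.0053 over all genes tested. The libraries of the genotypes did not overlap for 9 of the 10 genes, against 55.9% of all tested genes. Egr1 and Nr4a2 were at least 2-fold higher, a class that holds 6.16% of all tested genes. The 10 genes were chosen with earlier results of these data known, so setting them beside all tested genes is not an independent test.

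**Figure D2:**
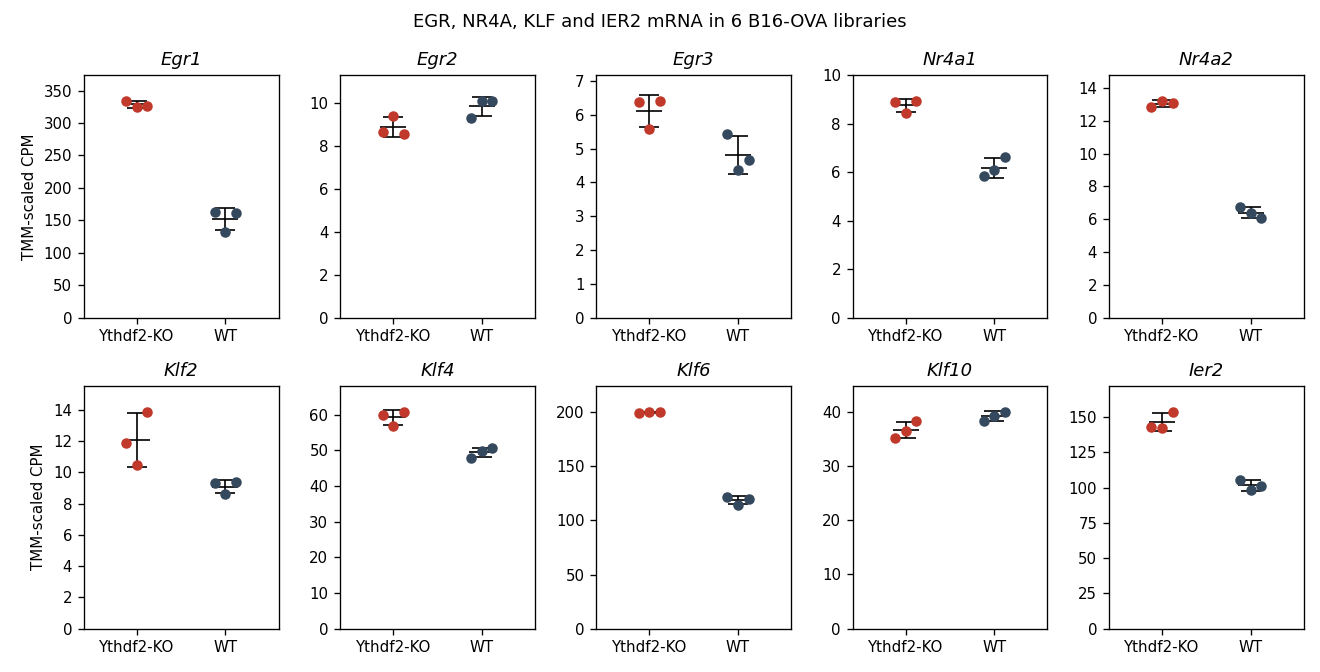
CPM of each gene in the 3 Ythdf2-KO (left) and 3 WT (right) libraries, 1 point per library, with the mean and SD as bars. The Ythdf2-KO libraries lie above all WT libraries for 8 genes, for example Egr1 at 325 to 334 CPM against 133 to 163 CPM, while those of Egr2 overlap.

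EGR1, a zinc-finger factor that activates growth and stress genes, had, with Nr4a2, one of the 2 highest fold changes of the set. Egr1 had 334, 325 and 327 CPM in the Ythdf2-KO libraries and 163, 133 and 161 CPM in the WT libraries, each in the order of replicates 1 to 3. The Ythdf2-KO libraries lay close together and well above every WT library, of which replicate 2 was low. That is a log2 fold change of 1.11 ± 0.092 (SE, 3 libraries per genotype; edgeR adjusted p = 0.000621), a 2.16-fold higher level. Without WT replicate 2 the log2 fold change was 1.031 (edgeR adjusted p = 4.78e-41), below that of Nr4a2 in the same fit, 1.042, so the order of these genes turned. That fit keeps 2 WT libraries, at 163 and 161 CPM, so its smaller adjusted p is not stronger evidence of a difference. In bulk RNA, more RNA per cell and more cells with the RNA cannot be told apart.

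EGR3, a close relative known from neurons and lymphocytes, was scarce and rose less. Egr3 stood at 6.37, 5.57 and 6.41 CPM in the Ythdf2-KO libraries and 5.44, 4.35 and 4.67 CPM in the WT libraries. The groups were apart by a narrow gap, between Ythdf2-KO replicate 2 and WT replicate 1. On the log2 scale the fold change came to 0.35 ± 0.11 (SE, 3 libraries per genotype; edgeR adjusted p = 0.00517). The call ended without replicate 3 of both genotypes (log2 fold change 0.29; edgeR adjusted p = 0.0770).

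EGR2, which directs peripheral myelination and restrains T cells, did not follow the other EGR genes. Egr2, whose promoter window holds the CArG box printed above, stood at 8.65, 9.41 and 8.58 CPM in the Ythdf2-KO libraries and 9.32, 10.1 and 10.1 CPM in the WT libraries. Ythdf2-KO replicate 2 was above WT replicate 1, so the groups overlapped. The log2 fold change was -0.15, with a 95% interval of -0.31 to 0.0073 (edgeR adjusted p = 0.110). With the offsets for GC content and length it was called lower (log2 fold change -0.22; edgeR adjusted p = 0.0180). The intervals of Egr1 (0.86 to 1.36) and Egr3 (0.13 to 0.56) lie apart from it and from each other, and the differences between genes were not tested.

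Both NR4A genes of the set rose. NR4A2, also called NURR1 and needed for dopamine neurons, had 12.8, 13.2 and 13.1 CPM of mRNA in the Ythdf2-KO libraries and 6.73, 6.37 and 6.06 CPM in the WT libraries. Its libraries fell into separate groups with little spread in either genotype. Its log2 fold change came to 1.03 ± 0.078 (SE, 3 libraries per genotype; edgeR adjusted p = 1.90e-15), a 2.04-fold higher level. NR4A1, or NUR77, an orphan receptor linked to apoptosis and T-cell activation, had 8.90, 8.47 and 8.95 CPM in the Ythdf2-KO libraries and 5.85, 6.08 and 6.64 CPM in the WT libraries. All Ythdf2-KO libraries were above all WT libraries for Nr4a1 too. That is a log2 fold change of 0.50 ± 0.088 (SE, 3 libraries per genotype; edgeR adjusted p = 4.00e-06). The third family member, Nr4a3, lay outside the set and at a lower level, 37 to 148 counts a library, with 1.95 ± 0.208 CPM in Ythdf2-KO cells and 0.748 ± 0.112 CPM in WT cells (SD, n = 3 each), a 2.59-fold rise (edgeR adjusted p = 3.56e-07). The promoter windows of Nr4a1 and Nr4a2 are the ones with 4 CRE cores each. The 95% interval of the log2 fold change was 0.87 to 1.19 for Nr4a2 and 0.33 to 0.68 for Nr4a1, and the difference between the genes was not tested.

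The KLF genes of the set did not move alike: 3 rose and 1 did not. KLF6, a widely expressed factor studied as a growth suppressor, rose most. Klf6 stood at 199, 201 and 200.3 CPM in the Ythdf2-KO libraries and 121, 114 and 120.1 CPM in the WT libraries. The Ythdf2-KO libraries were nearly identical and far from the WT libraries. On the log2 scale the fold change came to 0.76 ± 0.025 (SE, 3 libraries per genotype; edgeR adjusted p = 1.72e-28), a 1.69-fold higher level. Its promoter window held no CRE core, CArG box or MEF2 site.

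KLF4, best known as a reprogramming and epithelial differentiation factor, rose by less. Klf4 stood at 59.97, 56.9 and 60.9 CPM in the Ythdf2-KO libraries and 47.9, 49.7 and 50.6 CPM in the WT libraries. The groups were separate but near each other. Its log2 fold change came to 0.26 ± 0.036 (SE, 3 libraries per genotype; edgeR adjusted p = 3.16e-08), a 1.198-fold higher level.

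KLF2, a factor of endothelial cells and resting lymphocytes, stood at 11.9, 10.5 and 13.9 CPM in the Ythdf2-KO libraries and 9.29, 8.61 and 9.35 CPM in the WT libraries. Ythdf2-KO replicate 3 was the highest, and the spread within Ythdf2-KO, 14.2% of the mean, was the widest of the 10 genes in that genotype. That is a log2 fold change of 0.41 ± 0.084 (SE, 3 libraries per genotype; edgeR adjusted p = 5.45e-05), and without Ythdf2-KO replicate 3 it was 0.30 (edgeR adjusted p = 0.00446). The same library held 74 counts of the leukocyte gene Ptprc, against 2 and 0 in the other Ythdf2-KO libraries and 2 to 6 in WT libraries. Of the 8 leukocyte markers listed, Itgam was at 0 in all Ythdf2-KO libraries and at most 4 counts in WT libraries, Cd3e had 8 counts in Ythdf2-KO replicate 3 and at most 2 elsewhere, and the 8 together summed to 23.6 to 24.7 CPM in Ythdf2-KO and 18.3 to 19.8 CPM in WT, nearly all from Lyz2 and Laptm5, which were called 1.22- and 1.34-fold higher. The macrophage markers Adgre1 and Csf1r went the other way at low counts: Adgre1 had 2 to 4 counts in Ythdf2-KO and 10 to 22 in WT and was called lower (edgeR adjusted p = 0.000754), and Csf1r, not tested, had 3 to 8 counts in Ythdf2-KO and 8 to 18 in WT. The part of these traces in the level of Klf2 was not tested beyond leaving that library out. Of 5 endothelial markers, which also matter for Klf2, the sum was 1.86 to 2.17 CPM in Ythdf2-KO and 2.60 to 2.66 CPM in WT.

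KLF10, induced by TGF-beta and known as TIEG1, went the other way by a small amount. Klf10 stood at 35.2, 36.5 and 38.26 CPM in the Ythdf2-KO libraries and 38.32, 39.3 and 40.03 CPM in the WT libraries. The highest Ythdf2-KO library all but met the lowest WT library. On the log2 scale the fold change came to -0.098 ± 0.041 (SE, 3 libraries per genotype; edgeR adjusted p = 0.0455). The call was lost under 13 of 17 alternatives, with adjusted p up to 0.396 (edgeR, upper-quartile factors).

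IER2, a small nuclear protein of the immediate-early response, rose as well. Ier2 stood at 143, 142 and 154 CPM in the Ythdf2-KO libraries and 106, 98.1 and 101 CPM in the WT libraries. No WT library reached the lowest Ythdf2-KO library. Its log2 fold change came to 0.53 ± 0.030 (SE, 3 libraries per genotype; edgeR adjusted p = 8.34e-17), a 1.44-fold higher level.

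Per kilobase of merged exons, the genes spanned a wide range of levels. In Ythdf2-KO the order was Ier2 at 96.2 ± 4.25, Egr1 at 73.3 ± 1.10, Klf6 at 45.6 ± 0.147, Klf4 at 19.4 ± 0.689, Klf10 at 8.77 ± 0.366, Klf2 at 6.54 ± 0.928, Nr4a2 at 3.21 ± 0.0491, Egr2 at 2.61 ± 0.136, Nr4a1 at 2.50 ± 0.0754 and Egr3 at 1.39 ± 0.107 CPM per kilobase (SD, n = 3). The libraries of neighbours in that order were apart except for Egr2 and Nr4a1, whose values overlapped. In WT the order was the same down to Klf2, from 66.7 ± 2.47 CPM per kilobase for Ier2 to 4.92 ± 0.222 for Klf2, followed by Egr2 at 2.90 ± 0.134, Nr4a1 at 1.76 ± 0.116, Nr4a2 at 1.57 ± 0.0833 and Egr3 at 1.09 ± 0.126 CPM per kilobase (SD, n = 3), with no overlap between neighbours. Nr4a2 was thus ahead of Egr2 and Nr4a1 in Ythdf2-KO and behind both in WT. In WT the gap to Nr4a1 was slight, between 1.658 in the highest library of Nr4a2 and 1.667 in the lowest of Nr4a1. Summed over the 10 genes, the level was 820 ± 11.3 CPM in Ythdf2-KO and 497 ± 24.1 CPM in WT (SD, n = 3), of which Egr1 made up 40.1% in Ythdf2-KO and 30.6% in WT.

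The other EGR, KLF, NR4A and IER genes did not share one direction. Of 18 listed, 15 were tested, of which 6 were called higher and 7 lower, against 24.1% and 25.8% of all genes tested. The median of the 15 on the log2 scale was -0.13 beside -0.0053 over all genes tested. IER3, a survival factor that is also an NF-kappaB target, was the strongest fall: Ier3 stood at 138, 133 and 140.3 CPM in the Ythdf2-KO libraries and 375, 377 and 369 CPM in the WT libraries, 2.73-fold lower (log2 fold change -1.45 ± 0.024, SE, 3 libraries per genotype; edgeR adjusted p = 1.07e-40). Ier2 and Ier3 therefore moved in opposite directions. Ier5 and Ier5l, which encode further immediate-early proteins, fell as well, by log2 fold changes of -0.14 and -0.35.

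Among KLF genes outside the set, Klf3, a repressor, rose 1.37-fold to 55.9 ± 0.313 CPM in Ythdf2-KO, against 40.8 ± 0.506 CPM in WT (SD, n = 3 each), and Klf13 and Klf8 rose 1.25- and 1.13-fold. Klf12 and Klf15 rose 5.47- and 2.49-fold at low levels, 1.16 ± 0.282 and 2.31 ± 0.200 CPM in Ythdf2-KO against 0.211 ± 0.109 and 0.927 ± 0.155 CPM in WT (SD, n = 3 each). Klf7, an activator known from neurons, fell 1.34-fold, to 46.8 ± 1.49 CPM in Ythdf2-KO against 62.5 ± 2.03 CPM in WT (SD, n = 3 each), and Klf5, Klf9 and Klf11 fell by log2 fold changes of -0.19, -0.13 and -0.27. Klf1 and Klf16, at -0.32 and -0.011 on the log2 scale, were not called. Egr4 and Klf14 had no count in any library, where 3 counts equal 0.0433 to 0.0540 CPM, and Klf17 averaged 0.0302 CPM in Ythdf2-KO and 0.0222 CPM in WT. With upper-quartile factors 3 of these relatives were lower in place of 7, and under a filter at a mean of 5 CPM 3 were higher in place of 6.

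**Figure D3:**
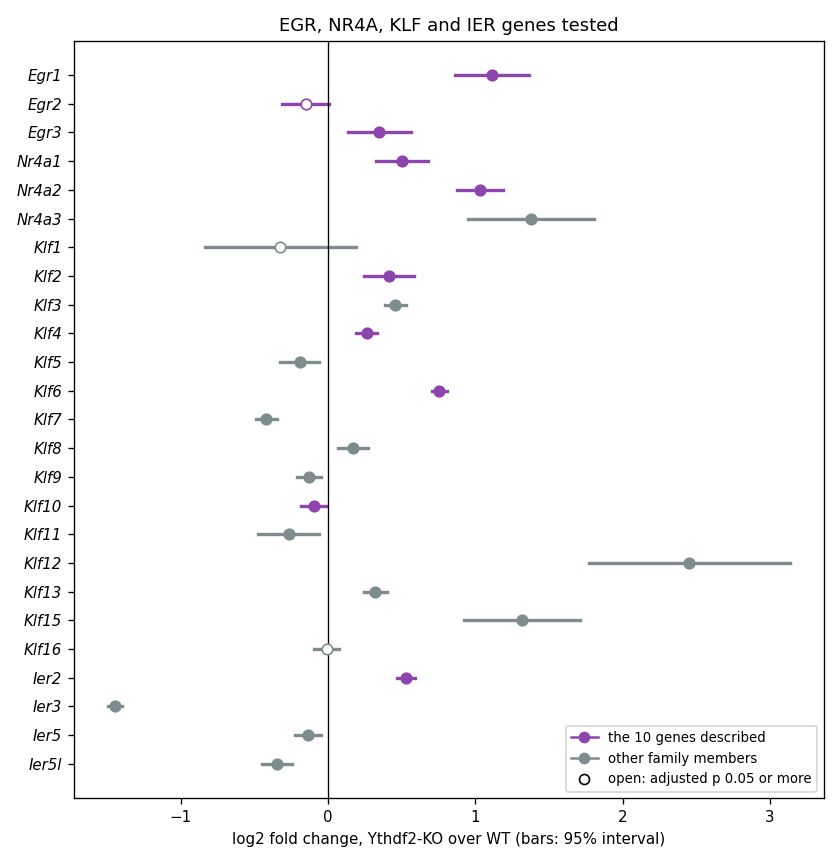
Log2 fold change, Ythdf2-KO over WT, of each tested EGR, NR4A, KLF and IER gene with its 95% interval, the 10 genes described in purple and other family members in grey, with open circles for genes not called. The values run from -1.45 for Ier3 to 2.45 for Klf12, and Egr2, Klf1 and Klf16 are open.

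Upstream of these genes, mRNAs of kinases and factors differed by small amounts. Of 25 regulators of the ERK, SRF, MRTF, CREB and MEF2 routes, 5 were called higher, 6 lower and 14 not. Over all genes tested, 24.1% were called higher and 25.8% lower. The median log2 fold change of the 25 was -0.0088 beside -0.0053 over all genes tested. Map2k1, which encodes the ERK kinase MEK1, fell 1.33-fold, and stood at 137, 145 and 146 CPM in the Ythdf2-KO libraries and 189, 191 and 189 CPM in the WT libraries (edgeR adjusted p = 1.09e-18). Rps6ka5, which encodes the nuclear kinase MSK1, fell 1.42-fold at a level below 8 CPM, Mrtfa, an SRF coactivator, 1.16-fold and Atf1, a CREB relative, 1.07-fold. Rps6ka3, which encodes the kinase RSK2, rose 1.14-fold and Mrtfb 1.11-fold. Srf, which encodes serum response factor, stood at 70.5, 71.7 and 76.1 CPM in Ythdf2-KO libraries and 76.8, 76.8 and 73.4 CPM in WT libraries, which overlapped (log2 fold change -0.056; edgeR adjusted p = 0.159). The counts of regulators called moved with the processing. They were 1 higher and 13 lower under the offsets for GC content and length, and 8 higher and 3 lower with upper-quartile factors. They measure mRNA, not kinase activity.

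Other immediate-early genes split. Of 31 listed, 30 were tested, with 11 called higher, 13 lower and 6 not, against 24.1% higher and 25.8% lower over all genes tested. The 30 had a median log2 fold change of 0.016 beside -0.0053 over all genes tested. Fos, the AP-1 subunit gene that shares the SRF route with Egr1, rose 3.75-fold, and stood at 95.8, 97.3 and 101 CPM in the Ythdf2-KO libraries and 27.4, 24.3 and 26.6 CPM in the WT libraries (edgeR adjusted p = 4.31e-37). Dusp1, which encodes a MAP kinase phosphatase, rose 2.82-fold to 60.6 ± 2.02 CPM and Zfp36, which encodes an mRNA decay factor, 2.55-fold to 106.9 ± 1.98 CPM, against 21.5 ± 1.53 and 42.0 ± 0.644 CPM in WT (SD, n = 3 each). Jun rose by a log2 fold change of 0.18. Phlda1, Nfil3 and Plk2 fell 2.57-, 2.11- and 1.83-fold, to 61.4 ± 0.749, 20.9 ± 0.500 and 109.8 ± 0.820 CPM in Ythdf2-KO, against 158 ± 7.90, 44.0 ± 1.61 and 201 ± 2.37 CPM in WT (SD, n = 3 each). PHLDA1 is an early-induced regulator of apoptosis, NFIL3 a leucine-zipper repressor and PLK2 a stress-linked kinase. The rise of Egr1 was thus shared by Fos, Dusp1 and Zfp36 and not by Phlda1, Nfil3 or Plk2.

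Partners and reported targets of the EGR, KLF and NR4A factors included more genes that fell than rose. Of 20 listed, 18 were tested, with 4 called higher, 11 lower and 3 not, against 24.1% higher and 25.8% lower over all genes tested. The 18 had a log2 median of -0.17 beside -0.0053 over all genes tested. The EGR corepressor genes moved in opposite directions: Nab2, itself induced by EGR1, rose 1.23-fold to 72.7 ± 2.21 CPM in Ythdf2-KO against 59.1 ± 1.58 CPM in WT, and Nab1 fell 1.39-fold to 93.8 ± 2.63 CPM in Ythdf2-KO against 130.02 ± 3.07 CPM in WT (SD, n = 3 each; edgeR adjusted p = 1.35e-10 and 2.70e-19). F3, the tissue factor gene and a reported EGR1 target, rose 2.40-fold, and stood at 209, 206 and 204 CPM in the Ythdf2-KO libraries and 85.4, 84.2 and 88.4 CPM in the WT libraries (edgeR adjusted p = 9.95e-37). Fn1, which encodes fibronectin, rose 1.53-fold. Pdgfa, another reported EGR1 target, fell 2.23-fold, and stood at 57.9, 57.3 and 58.6 CPM in the Ythdf2-KO libraries and 133, 127 and 129 CPM in the WT libraries (edgeR adjusted p = 2.26e-33). Vegfa, an angiogenic growth factor gene, fell 1.73-fold, and Smad7, a TGF-beta inhibitor that KLF10 is reported to repress, 1.63-fold. Reported targets of Egr1 thus included genes that rose and genes that fell.

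**Figure D4:**
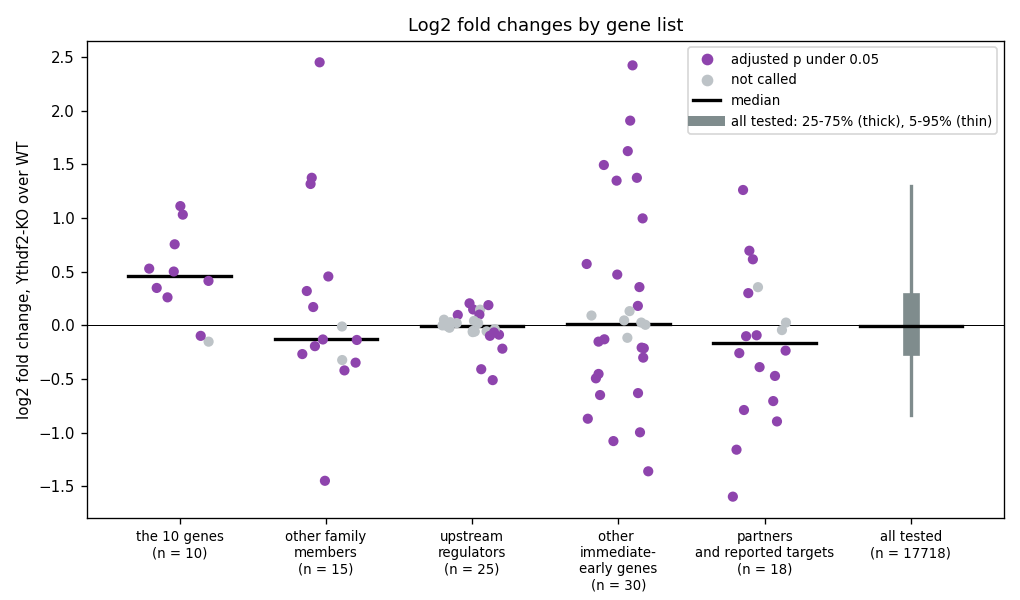
Log2 fold change, Ythdf2-KO over WT, of each tested gene in 5 lists, purple where called and grey where not, with the list median as a black line and the spread of all 17718 tested genes at the right. The 10 genes have a median of 0.46, and the medians of the other lists lie between -0.17 and 0.016.

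The 3-prime untranslated regions, taken from GENCODE models of GRCm38, were searched for the AU-rich pentamer ATTTA and for GGACT, one form of the sequence in which m6A is placed. ATTTA was in 9 of the 10, all but Ier2, against 67.6% of 12672 tested genes with such a region, and most densely in Nr4a1, with 3 in 543 bases. The regions of the 10 were longer, with a median of 1208 bases against 1024, which raises the share that holds any pentamer. The median density was 2.26 ATTTA per kilobase against 1.26. Egr3 and Klf6 each held 7, in 2645 and 3111 bases. GGACT was in 7 of the 10, against 61.0% of tested genes, and most often in Klf6 with 5 and Ier2 with 4. Klf2, Nr4a1 and Nr4a2 held none. Genes called higher were thus found both with GGACT (Egr1, Egr3, Klf4, Klf6 and Ier2) and without it. Egr2 and Klf10, which were not called higher, held 1 each. Other forms of the sequence were not searched, so a region without GGACT may still hold one. Methylation of these sites was not analysed here.

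Some measures of the libraries moved with the genotype too. All 7 melanocyte markers, from Mitf to Mlana, were detected in every library and higher in Ythdf2-KO, summing to 1401 to 1431 CPM against 237 to 241 CPM in WT. Mitochondrial genes took 1.57 to 1.82% of counts in Ythdf2-KO and 1.08 to 1.33% in WT, and the nuclear RNA Malat1 stood at 576 to 722 CPM in Ythdf2-KO and 376 to 511 CPM in WT. Neat1, also a nuclear RNA, and the ribosomal RNA Rn18s-rs5 were not called, and their libraries overlapped (log2 fold changes -0.083 and 0.13). The 5 fibroblast markers summed to 1152 to 1175 CPM in Ythdf2-KO and 1156 to 1192 CPM in WT, above the melanocyte sum in WT and below it in Ythdf2-KO. All 5 were called, in opposite directions: Dcn, which encodes decorin, was 11.7-fold lower at 41.5 ± 0.735 CPM in Ythdf2-KO and 487 ± 8.10 CPM in WT (SD, n = 3 each), and Lum 2.56-fold lower, while Col1a1 was 4.56-fold, Pdgfra 1.51-fold and Pdgfrb 1.49-fold higher. Epithelial markers summed to below 1 CPM in every library. The part of these differences in the levels of the 10 genes was not tested.

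**Figure D5:**
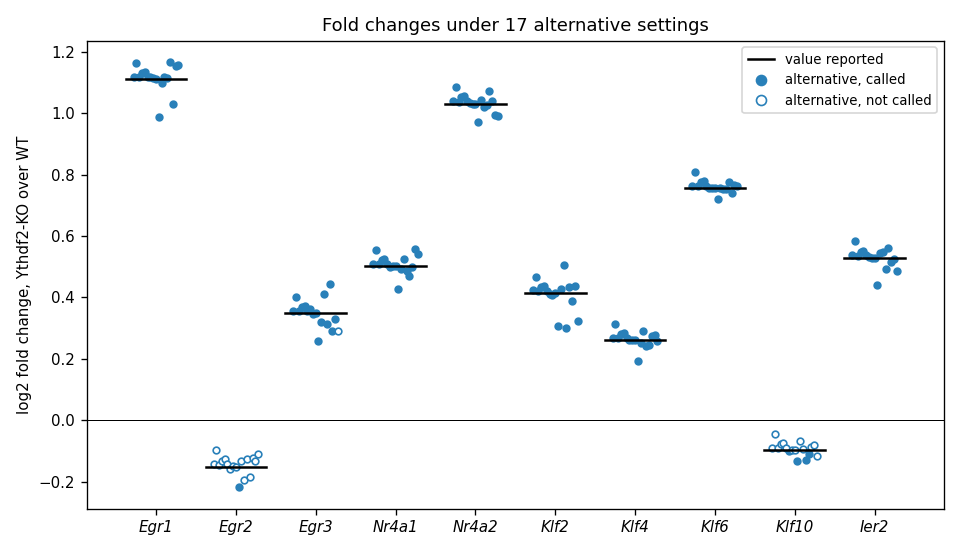
Log2 fold change of each gene, Ythdf2-KO over WT, under 17 alternative settings (points, open where not called) with the reported value as a line. Every gene kept its sign; 7 genes were called higher in all settings, Egr3 in all but 1, and most points of Klf10 and Egr2 are open.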

How the data were processed

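The submitters' processing notes name fastp 0.23.2, HISAT2 2.2.1 and featureCounts 2.0.6 as tools and GRCm39 as the build. The authors' deposited values are whole counts per gene symbol, not normalized. How strand and multi-mapping reads were handled is not stated. None of the 10 genes overlaps another gene in the GENCODE models used.

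The 10 genes and the gene lists were chosen with earlier results of these data known. In R 4.3.3, edgeR 4.0.16 tested all genes kept by filterByExpr, with TMM factors, a robust quasi-likelihood fit on genotype and Benjamini-Hochberg adjustment over 17718 genes; calls are at an adjusted p under 0.05. SE is the absolute log2 fold change over the square root of F, and 95% intervals use the fit's degrees of freedom. CPM are counts over TMM-effective library size. The step was tested on simulated counts. Alternatives used DESeq2 1.42.0, limma 3.58.1 and mgcv 1.9.3; the last smoothed offsets on GC content and length, known for 94.6% of tested genes. Promoters came from RefSeq and gene models from GENCODE M21, both of GRCm38, joined by symbol because the counts use GRCm39. Named genes were the 10, Ythdf2, the family members at 1 CPM or more in a genotype, the 6 smallest adjusted p in each other list, and Srf, Fos, Jun, Nab1 and Nab2. A gene that this rule names is not reported here. Figures were drawn with matplotlib 3.10.9.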

Additional observations from a re-analysis of the deposited data

How the results depend on the processing

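Under 17 alternatives, the direction of all 10 genes held. Egr1, Nr4a1, Nr4a2, Klf2, Klf4, Klf6 and Ier2 were called higher in each, with Egr1 between 0.99 and 1.17 and Nr4a2 between 0.97 and 1.09 (log2). Egr3 missed the call without replicate 3 of both genotypes (0.29). Egr2 was called lower with GC and length offsets (-0.22). Klf10 was not called with RLE (-0.089), upper-quartile (-0.044) or reduced-set factors (-0.091), no filter (-0.078), a 5 CPM filter (-0.074), DESeq2 (-0.089), the replicate block (-0.098), an adjusted p under 0.01 (-0.098) or without replicate 3 of both genotypes (-0.12), and over single libraries left out it ranged between -0.13 and -0.069. The number of the 10 called lower was therefore 0 under those settings and 2 with GC and length offsets, against 1 as reported, and 0 to 1 with single libraries left out. The cause was not tested.

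The relatives called higher numbered 3 under the 5 CPM filter, which removes genes, against 6, and those lower 3 with upper-quartile factors against 7. The upstream regulators called higher, 5 as reported, numbered 8 with upper-quartile factors, 3 at an adjusted p under 0.01, 1 with GC and length offsets, 2 without replicate 3 of both genotypes and 3 to 5 without single libraries. Those called lower, 6 as reported, numbered 3 with upper-quartile factors, 3 with no filter, 13 with GC and length offsets and 3 to 7 without single libraries. Over all tested genes, same-numbered replicates did not deviate together (correlations of 0.048, -0.063 and -0.097). Such a correlation cannot show whether a small group of genes deviated together. The replicate block left 4132 genes higher and 4409 lower against 4270 and 4569, and changed no call of the 10 but that of Klf10. Counting error limits Egr3, with 285 to 444 counts a library, more than Egr1, with 8680 to 22833.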

Other observations

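Among WT libraries, replicate 2 was lowest for 5 of the 10 genes (Egr1, Egr3, Klf2, Klf6 and Ier2) and replicate 1 for 4, while over all tested genes replicate 2 was lowest for 34.6% and replicate 1 for 33.4%. Among 30 other immediate-early genes WT replicate 2 was lowest for 17 (56.7%). These shares were not tested. For example, Ccn1, an early matricellular gene, stood at 703, 681 and 700.4 CPM in Ythdf2-KO libraries and at 243, 197 and 237 CPM in WT libraries, and Fosb at 120.2, 111 and 101 CPM in Ythdf2-KO libraries and 46.8, 31.4 and 49.8 CPM in WT libraries. Both were chosen after their values were seen. Among Ythdf2-KO libraries, replicate 2 was lowest for 6 of the 10 genes, against 35.9% of all tested genes, although the gaps there were small for Egr1. It was also lowest for 13 of the 30 other immediate-early genes (43.3%). Whether replicate 2 of both genotypes had something in common was not tested.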
